A study of Mus musculus with 8 samples.

Results

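The genes described here encode 9 proteins that shape chromosomes during cell division: topoisomerase II alpha (Top2a), Ki67 (Mki67), and 7 subunits of condensin (Smc2, Smc4, Ncapd2, Ncapg, Ncaph, Ncapd3, and Ncapg2). They were measured in sorted colonic epithelial cells of mice colonized with either of 2 strains of Bacteroides thetaiotaomicron. The genes were chosen by symbol, with earlier results of these data known. Every probe set, a group of short probes on the array that is read as 1 value, was taken if the array annotation tied it to exactly 1 of these symbols. This gave 22 of 45037 probe sets and 9 of 18193 genes. Smc2 has 5 probe sets, Top2a, Smc4, and Ncapd3 have 3 each, Ncapd2, Ncapg, and Ncaph have 2 each, and Mki67 and Ncapg2 have 1 each. No probe set annotated to several genes carried a member symbol (0 of 932).

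Condensin is a ring-shaped complex that folds replicated DNA into compact chromosomes. Smc2 and Smc4 form the motor at its core, and this core is shared by both versions of the complex: condensin I, with Ncapd2, Ncapg, and Ncaph, and condensin II, with Ncapd3, Ncapg2, and Ncaph2. Top2a cuts and rejoins both strands of DNA so that sister chromatids can be untangled, and Ki67 coats the surface of mitotic chromosomes and keeps them apart from each other. Most of these genes are transcribed mainly in cells that are preparing to divide, which in the colon are the cells in the lower part of the crypt, and Ki67 is widely used to mark such cells.

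The mice were C57BL/6 males from a specific pathogen-free colony. All of them were pretreated with metronidazole (spelled metronidazone in the labels) and ciprofloxacin, colonized at 8 wk of age, and sampled 4 wk later, at 12 wk. In 4 mice the colonizing strain was the wild type (BTWT), and in 4 it was a mutant without the MAFF locus (BTΔMAFF, spelled BTDMAFF in the labels). Living cells that carried the epithelial marker EpCAM and lacked the leukocyte marker CD45 were sorted from the colon, their RNA was amplified, and 1 Affymetrix mouse array was hybridized per mouse. No group without either strain was analysed here.

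The authors deposited log2 values from which the median of the 8 arrays had been subtracted for each probe set. A value of 0 is therefore the middle of the 8 mice for that probe set, a value of 1 is a doubling relative to it, and neither an absolute level nor a detection call can be read. The 2 middle mice of each probe set lie at equal distances on either side of 0. Levels of different genes, or of different probe sets of 1 gene, cannot be compared on this scale. Their differences between groups share the log2 unit, but how far each probe set lay above background is unknown, which limits comparing them. In such bulk samples, fewer cells of a type and less RNA per cell cannot be told apart. The BTWT 2 and BTΔMAFF 4 arrays stood apart from the others on the first principal component (58.1 and 47.0, against -36.8 to -6.39 for the other 6 arrays), which held 29.4% of the variance. Values without these 2 arrays are given where they end a call.

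The DNA just upstream of these genes is shown first because the genes were measured as a group of cell division genes, and many such genes carry a cell cycle genes homology region (CHR) and CCAAT boxes there. RefSeq promoter windows of GRCm38.p6, with 250 bases before and 50 after the start site, were found for 8 of the 9 genes. Smc4 is named only. The stretches of Top2a, Mki67, and Ncapg, the 3 genes with an unadjusted p under 0.05 between the groups, are printed 5′ to 3′ on the gene's own strand. Each one ends where the first annotated transcript of its gene begins. Capitals mark matches to the CHR (TTTGAA or TTCGAA, on either strand) and to the CCAAT box (CCAAT, read as ATTGG on the other strand). Top2a is at chr11:99024200-99024439 on the minus strand (240 bases), Mki67 at chr7:135716451-135716629 on the minus strand (179 bases), and Ncapg at chr5:45669675-45669890 on the plus strand (216 bases).
Top2a: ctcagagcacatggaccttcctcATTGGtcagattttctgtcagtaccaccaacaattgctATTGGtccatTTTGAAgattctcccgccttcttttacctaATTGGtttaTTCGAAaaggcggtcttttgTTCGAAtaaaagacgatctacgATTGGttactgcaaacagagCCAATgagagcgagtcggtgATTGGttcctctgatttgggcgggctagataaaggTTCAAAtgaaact
Mki67: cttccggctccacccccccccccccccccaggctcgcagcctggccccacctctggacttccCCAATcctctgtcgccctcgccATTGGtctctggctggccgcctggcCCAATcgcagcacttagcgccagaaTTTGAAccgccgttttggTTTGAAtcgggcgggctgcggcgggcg
Ncapg: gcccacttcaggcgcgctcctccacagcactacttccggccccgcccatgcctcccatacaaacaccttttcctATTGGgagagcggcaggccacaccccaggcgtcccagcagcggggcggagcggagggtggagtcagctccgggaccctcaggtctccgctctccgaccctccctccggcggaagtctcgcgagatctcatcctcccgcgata

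The Top2a stretch holds 4 CHR and 6 CCAAT matches, the Mki67 stretch 2 and 3, and the Ncapg stretch 0 and 1. Ncapg has a CHR match 30 bases before the start site used by the table, inside the annotated gene and therefore outside the printed stretch. No printed CHR match shares a base with a printed CCAAT match. In the full windows of 300 bases, 7 of 8 genes had a CHR match (Top2a, Mki67, Smc2, Ncapd2, Ncapg, Ncapd3, and Ncapg2), against 19.2% of the 32851 mouse promoter windows. A CCAAT box was found in 5 of 8 (Top2a, Mki67, Smc2, Ncapd2, and Ncapg), against 37.4%, and both motifs in the same 5, against 7.52%. A site of the E2F type (TTTGGCG or TTTGCCG or TTTCGCG or TTTCCCG, on either strand) was found in 4 of 8 (Ncapd2, Ncapg, Ncapg2, and Ncaph), against 6.70%. Ncapd3 has a pair of windows, and its CHR match lies in only 1 of them, which is inside the annotated gene. The whole Ncapd2 window, with all its matches, also lies inside the annotated gene. So does the CHR match of Ncapg2, 18 bases before the start site used. Counted by window, as for all promoters, 7 of 9 had a CHR match, 5 of 9 a CCAAT box, and 4 of 9 an E2F site. A match describes the letters in a window and is not evidence of a bound factor.

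All 9 genes had a positive difference between the groups, that is, a higher mean in BTWT- than in BTΔMAFF-colonized mice, when each gene was represented by its probe set with the largest SD over the 8 arrays. Top2a and Ncapg, the condensin I subunit, differed about 2-fold or more, and Mki67 by 1.52-fold. These 3 reached an unadjusted p under 0.05 in limma, 0 genes did so in the other direction, and the other 6 did not reach it. The background for this count was 2.35% of all 18193 genes higher in BTWT at the same threshold and 3.37% lower. A positive difference alone was common, with 66.8% of all genes having one, or 51.6% when each array was centred on its own median. The median log2 difference was 0.44 over the 9 genes and 0.019 over all genes. As the genes were chosen with earlier results of these data known, these counts only describe them.

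After Benjamini-Hochberg adjustment over all 45037 probe sets, none of the 9 genes passed. Their smallest adjusted p in limma was 0.599, and 0 probe sets of the whole array passed, although 2295 (5.1%) had an unadjusted p under 0.05. The thresholds of the study, a fold change over 2 with an unadjusted p under 0.05, were met by Top2a and Ncapg, 2 of 9 genes, against 0.451% of all genes in this direction. The study had listed both as higher genes from these same arrays, so they are not independent evidence of their direction. The labels number the mice within each group. The p-values set the difference between the groups against the spread between arrays within the groups, for these 8 arrays.

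Over the 22 probe sets, 21 had a positive difference, 6 were higher in BTWT at an unadjusted p under 0.05, and 0 were lower. The corresponding shares of all probe sets were 69.9% positive, 2.24% higher, and 2.86% lower. The share of positive differences depended on the scaling of the arrays. When each array was centred on its own median, 19 of the 22 were positive against 51.1% of all probe sets, and with quantile normalization 19 were positive against 52.3%. By role, the 6 were 1 of 3 probe sets of topoisomerase II, the 1 of Ki67, 1 of 8 of the shared core (Smc4), 2 of 6 of condensin I (both of Ncapg), and 1 of 4 of condensin II (Ncapd3).

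**Figure D1:**
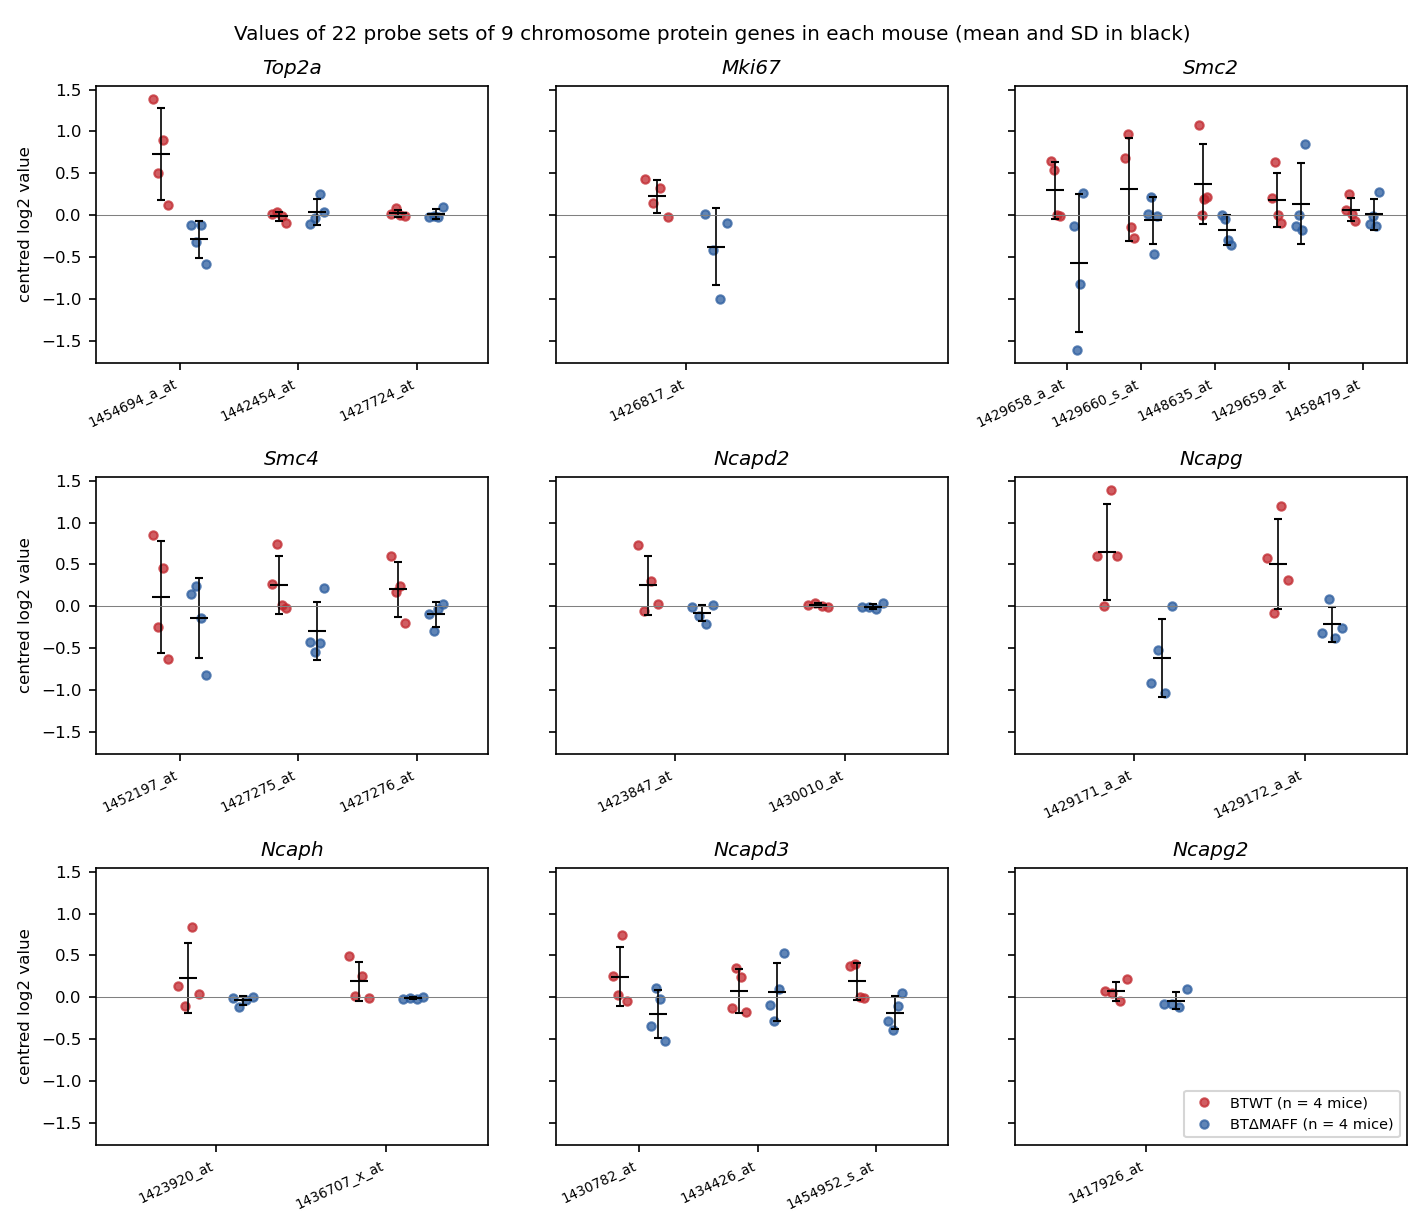
Centred log2 value (y axis, 0 is the median of the 8 arrays) of each of the 22 probe sets (x axis) in 4 BTWT mice (red) and 4 BTΔMAFF mice (blue), with the mean and SD of each group in black. The groups are apart for Top2a 1454694_a_at and for Smc2 1448635_at, where the gap is 0.00084, and the other Top2a probe sets stay close to 0 in all mice.

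Top2a encodes the isoform of topoisomerase II that dividing cells use, and its 3 probe sets gave different answers. The probe set 1454694_a_at had values of 1.39, 0.50, 0.90, and 0.12 in BTWT mice 1 to 4 and of -0.12, -0.32, -0.12, and -0.59 in BTΔMAFF mice 1 to 4. All BTWT mice had higher values than all BTΔMAFF mice, a pattern seen in 1.27% of all probe sets, and BTWT 4 was the one closest to the other group. The means were 0.73 ± 0.55 (SD, n = 4) and -0.29 ± 0.22 (SD, n = 4), a log2 difference of 1.02 (SE 0.27, 95% confidence interval 0.37 to 1.66), or 2.02-fold. Limma gave an unadjusted p of 0.00730 and an adjusted p of 0.599. The difference stayed between 0.80, without BTWT 1, and 1.22, without BTWT 4, when each array was left out, with an unadjusted p under 0.05 in 8 of 8 fits.

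The other Top2a probe sets did not show this difference. The values of 1442454_at were 0.0094, 0.036, -0.0094, and -0.088 in BTWT mice and -0.11, -0.032, 0.25, and 0.041 in BTΔMAFF mice, so that the groups overlapped and the highest mouse was BTΔMAFF 3. This was the 1 member probe set with a negative difference, -0.05 (SE 0.078, 95% confidence interval -0.23 to 0.13, unadjusted p = 0.536), and without BTΔMAFF 3 it turned to 0.020. The values of 1427724_at lay between -0.010 and 0.084 in BTWT and between -0.025 and 0.098 in BTΔMAFF, with a difference of 0.013 (SE 0.037, 95% confidence interval -0.076 to 0.10, unadjusted p = 0.745). Both intervals end far below the difference of the first probe set. The spread over the 8 arrays differed as well: the SD of 1454694_a_at was 0.67, at the 96.4th percentile of all probe sets, whereas those of 1442454_at and 1427724_at were 0.11 and 0.047, at the 46.9th and 31.4th percentiles.

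Mki67, the gene of the proliferation marker Ki67, is measured by 1 probe set, 1426817_at. Its values were 0.44, 0.15, 0.33, and -0.016 in BTWT mice and 0.016, -0.42, -1.01, and -0.091 in BTΔMAFF mice. The groups overlapped only in that BTΔMAFF 1 lay slightly above BTWT 4, and BTΔMAFF 3 was by far the lowest mouse. The log2 difference was 0.60 (SE 0.23, 95% confidence interval 0.050 to 1.15), with an unadjusted p of 0.0364 and an adjusted p of 0.828 in limma. The call was lost in 4 of 8 fits that left out 1 array, although the difference stayed similar: it was 0.58 without BTΔMAFF 2 (unadjusted p = 0.0730), 0.53 without BTWT 1 (unadjusted p = 0.0870), 0.63 without BTWT 2 (unadjusted p = 0.0590), and 0.56 without BTWT 3 (unadjusted p = 0.0790). Without BTΔMAFF 3, the lowest mouse, the difference was 0.39 and the call was kept (unadjusted p = 0.0396). When both arrays that stood apart were left out, the difference was 0.72 with an unadjusted p of 0.0633.

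The shared condensin core, Smc2 and Smc4, had 8 probe sets with positive differences from 0.048 to 0.87, and 1 of them reached an unadjusted p under 0.05. Smc2 was represented by 1429658_a_at, with values of 0.64, 0.54, 0.0045, and -0.0045 in BTWT mice and -0.13, -1.61, -0.83, and 0.27 in BTΔMAFF mice. BTΔMAFF 2 and BTΔMAFF 3 were the low mice, and BTΔMAFF 4 lay above BTWT 3 and BTWT 4. The difference of 0.87 (SE 0.41, 95% confidence interval -0.11 to 1.85) had an unadjusted p of 0.0737, and without BTΔMAFF 4 it was 1.15 with an unadjusted p of 0.0239. Without BTΔMAFF 2 it was 0.52.
A different Smc2 probe set, 1448635_at, had values of 1.07, 0.00042, 0.20, and 0.21 in BTWT mice and -0.00042, -0.048, -0.29, and -0.36 in BTΔMAFF mice. No BTΔMAFF mouse reached a BTWT mouse, but BTWT 2 and BTΔMAFF 1 were almost equal and BTWT 1 was far above the others. The difference was 0.55 (SE 0.24, unadjusted p = 0.0535), and without BTWT 1 it was 0.31, with an unadjusted p of 0.0302, and without BTWT 2 it was 0.67, with one of 0.0315. The differences of 1429660_s_at, 1429659_at, and 1458479_at were 0.37 (SE 0.31), 0.048 (SE 0.27), and 0.055 (SE 0.11), all with overlapping groups. That of 1429660_s_at was 0.15 without BTWT 2, 0.17 with both arrays that stood apart left out, and -0.052 when the arrays were weighted by their quality.

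Smc4 showed how the choice of probe set decides a call. The probe set with the largest SD, 1452197_at, had values of 0.85, -0.25, 0.46, and -0.63 in BTWT mice and 0.15, 0.25, -0.15, and -0.82 in BTΔMAFF mice, with a difference of 0.25 (SE 0.38, 95% confidence interval -0.65 to 1.15, unadjusted p = 0.531). Here the mice differed within the groups more than between them, and without BTWT 1 the difference was 0.0043. The probe set 1427275_at had values of 0.27, 0.74, 0.020, and -0.020 in BTWT mice and -0.43, -0.55, -0.44, and 0.22 in BTΔMAFF mice. Apart from BTΔMAFF 4, all BTΔMAFF mice were below all BTWT mice. Its difference was 0.55 (SE 0.23, unadjusted p = 0.0466), and leaving out any of BTWT 1, BTWT 2, BTΔMAFF 1, BTΔMAFF 2, or BTΔMAFF 3 moved the unadjusted p to between 0.0855 and 0.111. When both arrays that stood apart were left out, it was 0.56 with an unadjusted p of 0.00191. The remaining probe set, 1427276_at, had a difference of 0.30 (SE 0.17, unadjusted p = 0.114), which was 0.17 without BTWT 1 (unadjusted p = 0.247) and 0.44 without BTWT 4 (unadjusted p = 0.0153).

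Of the condensin I subunits, Ncapg reached an unadjusted p under 0.05. Ncapd2 and Ncaph did not, although their differences were also positive, and the subunits were not tested against each other. Ncapg encodes one of the HEAT repeat subunits, which help the complex to hold on to DNA. The values of its probe set 1429171_a_at were 0.60, -0.0018, 1.39, and 0.61 in BTWT mice and -0.92, -0.52, -1.04, and 0.0018 in BTΔMAFF mice. The groups overlapped only between BTWT 2 and BTΔMAFF 4, the arrays that stood apart, which were almost equal. The means were 0.65 ± 0.57 (SD, n = 4) and -0.62 ± 0.47 (SD, n = 4), a log2 difference of 1.27 (SE 0.34, 95% confidence interval 0.46 to 2.07), or 2.41-fold. This was the largest difference among the 22 probe sets, with an unadjusted p of 0.00752 and an adjusted p of 0.600 in limma. It ranged from 1.02, without BTWT 3, to 1.48, without BTWT 2, and had an unadjusted p under 0.05 in 8 of 8 fits that left out 1 array. With both arrays that stood apart left out, it was 1.69 (unadjusted p = 0.00208).

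The second Ncapg probe set, 1429172_a_at, went the same way with a smaller difference. Its values were 0.58, -0.081, 1.20, and 0.31 in BTWT mice and -0.32, 0.081, -0.37, and -0.26 in BTΔMAFF mice, and BTWT 3 was the highest mouse by both probe sets. Here BTWT 2 lay below BTΔMAFF 2, and the other BTWT mice lay above all BTΔMAFF mice. The difference was 0.72 (SE 0.27, unadjusted p = 0.0303), and the unadjusted p was between 0.0645 and 0.0715 without any 1 of BTWT 1, BTΔMAFF 1, BTΔMAFF 3, or BTΔMAFF 4.

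Ncapd2, the other HEAT repeat subunit of condensin I, had values of 0.73, -0.056, 0.30, and 0.030 in BTWT mice and -0.014, -0.12, -0.21, and 0.014 in BTΔMAFF mice by 1423847_at. BTWT 1 and BTWT 3 stood above the rest, and BTWT 2 lay among the BTΔMAFF mice. The difference was 0.33 (SE 0.17, unadjusted p = 0.0931), falling to 0.17 without BTWT 1 and reaching 0.43 without BTWT 2 (unadjusted p = 0.0393). Its second probe set, 1430010_at, hardly varied between mice: the SD over the 8 arrays was 0.024, at the 8.47th percentile of all probe sets, and the difference was 0.019 (SE 0.024).
Ncaph, which closes the ring of condensin I, had values of 0.13, -0.11, 0.83, and 0.044 in BTWT mice and -0.0067, -0.12, -0.032, and 0.0067 in BTΔMAFF mice by 1423920_at. The difference of 0.26 (SE 0.20, unadjusted p = 0.219) came mainly from BTWT 3, without which it was 0.061. By 1436707_x_at the high mouse was instead BTWT 1, at 0.49, and the difference was 0.20 (SE 0.11, unadjusted p = 0.104), falling to 0.10 without BTWT 1 (unadjusted p = 0.178) and reaching 0.27 without BTWT 4 (unadjusted p = 0.0443).

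Neither of the condensin II subunits, Ncapd3 and Ncapg2, reached the threshold by its representing probe set. Ncapd3, a HEAT repeat subunit, was represented by 1430782_at, with values of 0.25, 0.025, 0.74, and -0.040 in BTWT mice and -0.35, 0.11, -0.025, and -0.52 in BTΔMAFF mice. The groups overlapped in several mice, and the difference was 0.44 (SE 0.21, 95% confidence interval -0.060 to 0.94, unadjusted p = 0.0760), and 0.54 without BTΔMAFF 2 (unadjusted p = 0.0497) or 0.27 without BTWT 3. The probe set 1454952_s_at had values of 0.37, 0.40, 0.0057, and -0.0057 in BTWT mice and -0.29, -0.40, -0.11, and 0.049 in BTΔMAFF mice. BTΔMAFF 4 was the 1 BTΔMAFF mouse that reached the BTWT range. Its difference of 0.38 (SE 0.14) had an unadjusted p of 0.0289, and one between 0.0697 and 0.0735 without any 1 of BTWT 1, BTWT 2, BTΔMAFF 1, or BTΔMAFF 2. The remaining probe set, 1434426_at, had a difference of 0.012 (SE 0.20, unadjusted p = 0.954).
Ncapg2 had the smallest difference of the 9 genes. Its values were 0.069, 0.048, -0.048, and 0.22 in BTWT mice and -0.077, -0.081, -0.11, and 0.10 in BTΔMAFF mice, and BTΔMAFF 4 alone lay in the BTWT range. The difference was 0.11 (SE 0.071, 95% confidence interval -0.054 to 0.28, unadjusted p = 0.152), and it was 0.16 without BTΔMAFF 4 (unadjusted p = 0.0428) and 0.064 without BTWT 4 (unadjusted p = 0.349). Ncaph2, the ring-closing subunit of condensin II, is not one of the 9 genes. It belongs to the list of condensin and topoisomerase partners described below and is named here after its values were seen. It had a difference of 0.14 (SE 0.27) by its representing probe set and the opposite sign in its 3 other probe sets.

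**Figure D2:**
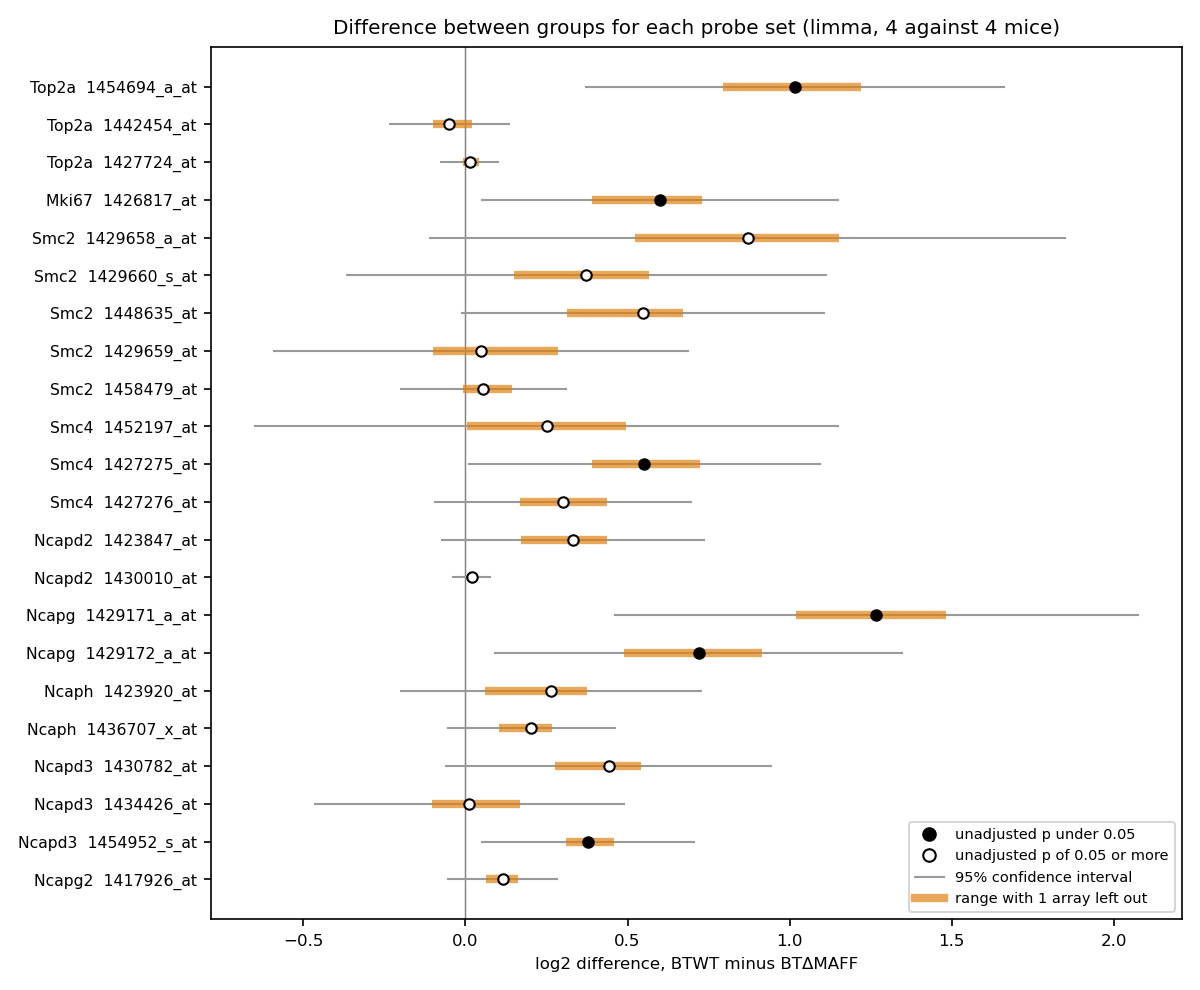
Log2 difference between BTWT and BTΔMAFF (x axis) of each member probe set (y axis), from limma with 4 against 4 mice, with filled points for an unadjusted p under 0.05, grey lines for the 95% confidence interval, and orange bars for the range when 1 array was left out. The intervals of 6 probe sets lie above 0, and Ncapg 1429171_a_at and Top2a 1454694_a_at have the largest differences, 1.27 and 1.02.

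To see where probe sets of 1 gene disagreed, the difference of both values in each mouse was compared between the groups for the 22 pairs of probe sets within a gene. Signs agreed in 20 pairs, and both pairs of opposite sign involved Top2a 1442454_at. In Top2a, 1454694_a_at exceeded 1442454_at by 1.07 and 1427724_at by 1.00 in its group difference, and in Smc2, 1429658_a_at exceeded 1458479_at by 0.81. Each of these 3 had p = 0.0286 in a two-sided exact permutation test, the smallest that 4 against 4 mice allow, and p = 0.210 after Benjamini-Hochberg adjustment over the 22 pairs. As 1442454_at and 1427724_at varied little, both Top2a pairs largely repeat the separation of the groups by 1454694_a_at and are not independent of it. For Smc2 1429658_a_at and 1429659_at, the gap was 0.82 (two-sided exact permutation test, p = 0.0571, adjusted p = 0.314). The Ncapg probe sets differed by 0.55 in their group difference (exact permutation p = 0.114, adjusted p = 0.359), which did not pass the threshold.

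Probe sets that varied little over the 8 mice, with the groups ignored, also had differences near 0. The member probe sets at or below the 57.7th percentile of SD were Top2a 1442454_at and 1427724_at, Smc2 1458479_at, Ncapd2 1430010_at, Ncaph 1436707_x_at, and Ncapg2 1417926_at, and their differences lay between -0.05 and 0.20. The SD over all mice contains the group difference, so the relation is partly built in. How far each probe set lay above background is unknown from centred values. Smc2 1429659_at and Ncapd3 1434426_at varied more, at the 82.5th and 71.4th percentiles, and still had differences of 0.048 and 0.012.

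**Figure D3:**
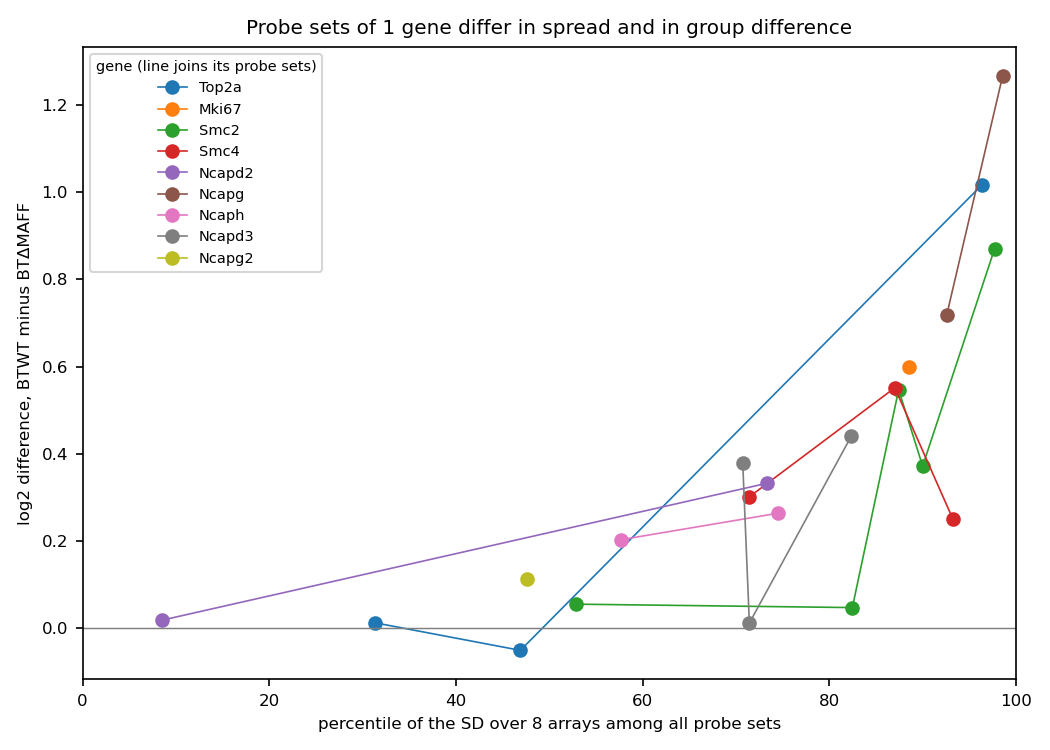
Log2 difference between BTWT and BTΔMAFF (y axis) against the percentile of the SD over the 8 arrays among 45037 probe sets (x axis), with a line joining the probe sets of 1 gene. The SD includes the group difference itself. The Top2a probe sets run from the 31.4th to the 96.4th percentile and from -0.05 to 1.02.

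When the mean of all probe sets stood for each gene instead, 4 of 9 genes were higher at an unadjusted p under 0.05, against 2.81% of all genes. These were Ncapg (0.99, unadjusted p = 0.010), Mki67 (0.60, unadjusted p = 0.034), Ncapd3 (0.28, unadjusted p = 0.029), and Top2a (0.33, unadjusted p = 0.012). Averaging reduced the Top2a difference from 1.02 by its most variable probe set to 0.33, and it brought Ncapd3 past the threshold. Smc4 and Smc2 had 0.37 (unadjusted p = 0.058) and 0.38 (unadjusted p = 0.078).

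Individual mice contributed unequally. The mean of the 9 genes was 0.57, 0.094, 0.55, and 0.037 in BTWT mice 1 to 4 and -0.16, -0.32, -0.39, and -0.18 in BTΔMAFF mice 1 to 4. BTWT 1 and BTWT 3 stood above the other mice, and BTWT 2 and BTWT 4 were close to the middle of all 8. In BTWT 1 all 9 genes lay above 0, in BTWT 3 it was 8, and in BTWT 2 and BTWT 4 it was 5 each. In BTΔMAFF mice 1 to 4, 2, 2, 0, and 5 genes lay above 0. BTWT 1 was the highest mouse in 5 genes, BTWT 3 in 3, and BTWT 4 in 1 (Ncapg2). The lowest mouse was BTΔMAFF 3 in 4 genes, BTΔMAFF 4 in 3, and BTΔMAFF 2 in 2. BTΔMAFF 4 was thus the lowest mouse for Top2a, Smc4, and Ncapd3 by their representing probe sets, and the highest BTΔMAFF mouse for Smc2, Ncapd2, Ncapg, Ncaph, and Ncapg2.

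The other genes of chromosome structure and mitotic control were read from 4 lists with 74 measured genes, chosen with earlier results of these data known. At an unadjusted p under 0.05 in limma, 2.35% of all genes were higher in BTWT and 3.37% were lower. Of 15 partners of condensin and topoisomerases, Ncaph2 among them, 1 was higher in BTWT and 2 were lower at the same threshold, and 12 did not reach it. Kif22, a motor protein on chromosome arms, had a log2 difference of 0.98 (SE 0.38, unadjusted p = 0.0370). Akap8l, which is related to the anchor protein Akap8, had -0.62 (SE 0.22, unadjusted p = 0.0289), and Top3b, a type I topoisomerase, had -0.43 (SE 0.17, unadjusted p = 0.0346), although 1 of its 2 other probe sets had the opposite sign. Of 24 genes of cohesin, which holds sister chromatids together, and of the related Smc5/6 complex, 0 reached the threshold in either direction in limma, and the median was 0.12. The smallest p-values in that list belonged to Sgo2a, a protector of cohesin at centromeres (0.23, unadjusted p = 0.0978), Esco2, an acetyltransferase of cohesin (0.65, unadjusted p = 0.176), and Rad21, a cohesin subunit (0.23, unadjusted p = 0.181). Both lists thus had medians of 0.12 to 0.13, with 0.019 over all genes.

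In the list of kinases, cyclins, phosphatases, and partners of mitotic chromosomes, 6 of 17 genes were higher, 0 were lower, and 11 did not reach the threshold. The shares of all genes were 2.35% higher and 3.37% lower. The median of the list was 0.47, close to that of the 9 genes. Of the 17, 15 had a positive difference, against 66.8% of all genes. The 2 negative ones, named after their values were seen, were the phosphatase genes Ppp2r5c (-0.67) and Ppp2r1a (-0.063). Birc5, a subunit of the chromosomal passenger complex, had values of 0.96, 0.87, 0.92, and 0.12 in BTWT mice and -0.40, -0.42, -0.77, and -0.12 in BTΔMAFF mice. All BTWT mice lay above all BTΔMAFF mice for Birc5, as in 3 of the 17 genes, against 1.3% of all genes. BTWT 4 was again the BTWT mouse nearest to the other group (difference 1.15, SE 0.22, unadjusted p = 0.00131). Cdk1, the kinase that starts mitosis and phosphorylates condensin, had a difference of 1.08 (SE 0.38, unadjusted p = 0.0249), and Ccnb2, one of its cyclins, one of 0.59 (SE 0.23, unadjusted p = 0.0351). Of 18 activators and repressors of transcription before mitosis, 2 were higher and 16 did not reach the threshold, with a median of 0.053. These 2 were the E2F family members E2f2 (1.60, SE 0.36, unadjusted p = 0.00284) and E2f8 (1.54, SE 0.43, unadjusted p = 0.00874). Lin54, the subunit of the DREAM complex that binds the CHR, had a difference of 0.35 (SE 0.16, unadjusted p = 0.0651). All of these values come from the same fit over all probe sets, and 0 of the 74 genes passed after adjustment in limma.

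**Figure D4:**
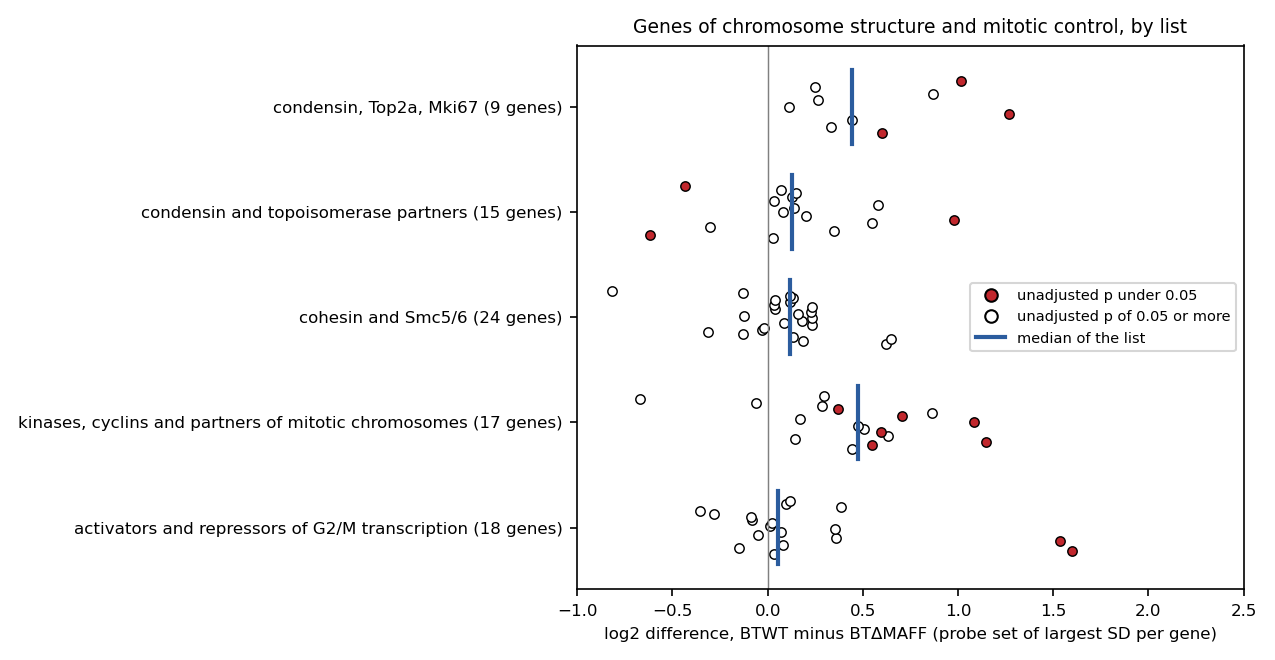
Log2 difference between BTWT and BTΔMAFF (x axis) of each gene by its probe set with the largest SD, for the 9 genes and 4 related lists (y axis), with red points for an unadjusted p under 0.05 and blue bars for the median of each list. The medians are 0.44 for the 9 genes and 0.47 for kinases, cyclins, and partners, which include phosphatases, against 0.053 to 0.13 for the other lists.

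Markers of cell types were read in the same fit because the cells were a sorted mixture. The counts below stand beside 2.35% of all genes higher in BTWT and 3.37% lower at the same threshold. Of 10 markers of differentiated colonocytes, 3 had an unadjusted p under 0.05 with a lower mean in BTWT (Slc26a3 -0.48, Krt20 -0.32, and Hsd17b2 -0.32) and 0 were higher, and the mean of the list ranged from -0.32 to 0.086 in BTWT mice and from -0.063 to 0.22 in BTΔMAFF mice. Of the 10, 8 had a negative difference and 2 a positive one (Aqp8 0.43 and Ceacam1 0.26). BTWT 1, the mouse with the highest mean of the 9 genes, had the lowest mean of these markers, and BTΔMAFF 3, with the lowest mean of the 9 genes, had the highest. BTWT 3, also high by the 9 genes (0.55), had -0.068, close to BTWT 4 at -0.062 and BTΔMAFF 1 at -0.063. BTWT 2 had the highest mean of the BTWT mice, 0.086. Of 9 goblet cell markers, 2 were lower (Fcgbp -0.67 and Clca1 -0.90) and 1 was higher (Agr2 0.55), with means of -0.26 to 0.16 in BTWT and -0.063 to 0.26 in BTΔMAFF. Of 9 stem cell markers, 7 had a positive difference, against 66.8% of all genes, and 1 of the 7 reached an unadjusted p under 0.05 (Ephb3 0.70). The other 2, Rnf43 (-0.56) and Lgr5 (-0.12, with the opposite sign in its other probe set), were negative, and Olfm4 was near 0 (0.045). The median was 0.53, above the 0.44 of the 9 chromosome protein genes. The stem cell list had means of 0.57, -0.061, 0.37, and -0.052 in BTWT mice 1 to 4 and of 0.36, -0.26, -0.27, and -0.23 in BTΔMAFF mice 1 to 4. BTWT 1 and BTWT 3 were the highest mice for these markers, as they were for the 9 genes, and BTΔMAFF 1 came close to BTWT 3. Of 8 general markers of epithelium, 2 were lower (Vil1 -0.40 and Krt19 -0.22), with means of -0.10 to 0.035 and -0.016 to 0.12. These named markers were chosen after their values were seen.

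Among markers of other cells, 0 of 13 leukocyte genes reached an unadjusted p under 0.05 in either direction in limma, with list means of -0.017 to 0.077 in BTWT and -0.016 to 0.12 in BTΔMAFF. Of 11 genes of stroma and endothelium, 6 had a positive and 5 a negative difference. The 1 that was higher at this threshold was Pdgfrb (1.16, with the opposite sign in its other probe set), against 2.35% of all genes. Col3a1, Col1a1, and Col1a2, named after their values were seen, had differences of -1.14, -0.77, and -0.36 without reaching it. BTΔMAFF 2 was the highest mouse for each (1.45, 2.03, and 1.93), and Col3a1 and Col1a2 each had another probe set of opposite sign. The list means were -0.21 to 0.19 in BTWT and -0.019 to 0.47, the value of BTΔMAFF 2, in BTΔMAFF. Epcam, the marker used for sorting, had a difference of 0.10 (SE 0.23), and Ptprc, which encodes CD45, one of -0.0067 (SE 0.031). Each has 1 other probe set, of opposite sign. Whether the labelled cell type's markers were present at high level cannot be read from centred values. As a measure of RNA quality, the Gapdh control probe set at the 3-prime end minus that at the 5-prime end was -0.11 ± 0.14 in BTWT and 0.0054 ± 0.16 in BTΔMAFF (two-sided exact permutation test, p = 0.314). For beta-actin it was -0.036 ± 0.020 and 0.034 ± 0.051 (p = 0.0857, same exact test). The part of cell type markers, RNA quality, and the arrays that stood apart in the differences of the 9 genes was not tested.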

How the data were processed

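The 8 arrays were grouped by their labels, with 4 mice for BTWT and 4 for BTΔMAFF. The authors deposited log2 values, each centred on its probe set's median over all arrays. GeneSpring is named in the methods, and Affymetrix Expression Console in the processing notes of the submitters. How signals were summarized, background-corrected, and normalized is not given in the sources used here. As no level was available, a filter on the 25% of probe sets with the smallest SD replaced one on dim probe sets.

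The 64 control probe sets were left out, and 45037 were compared by lmFit and eBayes of limma 3.58.1 (R 4.3.3) as BTWT minus BTΔMAFF, without covariates, adjusted by Benjamini-Hochberg, threshold 0.05. An unadjusted p under 0.05, and this with a fold change over 2, were also applied. Of the 45037, 34945 have 1 gene in the array annotation, 932 several, and 9160 none. A gene was represented by its probe set with the largest SD over the 8 arrays, groups ignored. Differences between probe sets of 1 gene were tested with an exact permutation test. The procedure was tested on simulated data. Alternatives were quantile normalization, centring of the arrays, array weights, a robust prior, the SD filter, the methods' t-test, a replicate block, other choices of probe set, and leaving out each array or both that stood apart.

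Named genes were all 9 members with every probe set, up to 3 genes of smallest p in each related list, Epcam, and Ptprc, and others are named as chosen after their values were seen. The members and lists were chosen with earlier results of these data known. Of the kinase, stem cell, and leukocyte lists, 2, 1, and 1 entries were not found. Coordinates and promoter sequences are from RefSeq tables of GRCm38.p6. Precision is limited by the number of arrays. The sequencing and histology experiments of the study were not analysed here.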

Additional observations from a re-analysis of the deposited data

Results flagged for a closer look

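In 3 of 44 groups of 4 mice, 1 mouse lay far from the other 3 by Dixon's test, which flags about 1 in 20 groups by chance. All 3 were the BTΔMAFF 4 array, which also stood apart on the first principal component, and in all 3 it was higher than the other BTΔMAFF mice. Top2a 1427724_at was 0.098 there and -0.025 to -0.0074 in the others, Smc4 1427275_at was 0.22 against -0.55 to -0.43, and Ncapg2 1417926_at was 0.10 against -0.11 to -0.077.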

How the results depend on the processing

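Top2a 1454694_a_at and Ncapg 1429171_a_at kept a positive difference and an unadjusted p under 0.05 under every alternative run. The count of 3 member genes became 7 with array weights, when 16.7% of all genes were higher, 2 with the methods' t-test (1.69% of all genes), 2 without both arrays that stood apart (7.55%), both times Top2a and Ncapg, and 2 to 5 when 1 array was left out (1.84% to 5.68%), with 5 without BTΔMAFF 4 (5.68%). The replicate numbers did not pair the mice (correlations of same-numbered deviations 0.39, -0.04, 0.03, and -0.27), and with the replicate number as a block 4 genes passed (Top2a, Ncapg, Ncapd3, and Ncapg2), against 3.14% of all genes. Probe sets past the adjusted threshold in limma, 0 of 45037, became 2 with the SD filter, 510 with array weights, 1 with arrays centred on their median, 2 without both arrays that stood apart, and 0 to 6 without 1 array. The count of 11 of 74 genes in the related lists stood beside 5.72% of all genes in either direction. It became 24 with array weights (26.9% of all genes) and 5 with the methods' t-test (4.22%). When 1 array was left out, it ranged from 4 without BTWT 1 (4.71%) to 13 without BTWT 4 (5.54%). Without BTΔMAFF 4 it was 9 (10.8%). The 3 pairs of probe sets that differed became 0 to 4 without 1 array, and 0 without both arrays that stood apart and with the replicate block, designs whose exact test cannot reach 0.05. The cause of these changes was not tested.

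Smc2 1429660_s_at, with a difference of 0.37, turned to -0.052 with array weights. Smaller differences also changed sign. Top2a 1427724_at was -0.0053 with arrays centred on their median, -0.0068 with quantile normalization, and -0.0071 to 0.041 without 1 array. Ncapd3 1434426_at was -0.0059 with centred arrays and -0.10 to 0.17 without 1 array. Ncapd2 1430010_at was -0.00025 with quantile normalization. Without 1 array, Top2a 1442454_at ranged from -0.099 to 0.020, Smc2 1429659_at from -0.10 to 0.29, and Smc2 1458479_at from -0.0082 to 0.14.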
